A study of Mus musculus with 6 samples.

Results

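The Hippo pathway was examined in podocytes through 10 genes chosen by name: the coactivators Yap1 and Wwtr1, the transcription factors Tead1, Tead2, Tead3 and Tead4, the kinases Lats1 and Lats2, and the target genes Amotl2 and Ankrd1. All 10 were found among the 57132 genes of the count table, and all 10 passed the filter on low counts. RNA was measured in 3 samples of immortalized wildtype (WT, Col4a3+/+) and 3 samples of immortalized Alport syndrome (AS, Col4a3-/-) podocytes, untreated in both groups, from lines labelled as made from male mice 8 weeks old. Both lines carry a temperature-sensitive large T antigen transgene (H-2Kb-tsA58), were grown at 33 °C in medium with 20 U/mL interferon gamma, and were differentiated at 37 °C for 14 days according to the sample records. The methods of the paper give a lower dose of interferon gamma during growth, 10 U/mL, and a shorter differentiation in its absence. Each genotype is 1 cell line, so genotype and cell line cannot be told apart, and the records do not say whether the 3 numbered sets of a line were separate cultures. The p-values therefore measure the spread between these samples, which may be technical.

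The Hippo pathway is a kinase cascade that restrains the coactivators YAP (Yap1) and TAZ (Wwtr1). MST kinases, with the scaffold SAV1, activate the LATS kinases with their MOB1 partners, and LATS phosphorylation holds YAP and TAZ in the cytoplasm. When the cascade is quiet, for example in spread cells on a stiff matrix, YAP and TAZ enter the nucleus and act through TEAD proteins, which bind DNA. In podocytes, which are under constant mechanical load, YAP is known to support survival. Much of this control is on protein phosphorylation and location, which counts of RNA do not show.

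In AS podocytes, 3 of the 10 genes were lower (Ankrd1, Wwtr1 and Lats2), 2 were higher (Tead2 and Lats1), and 5 did not pass the test (Yap1, Tead1, Tead3, Tead4 and Amotl2). With all samples, the largest change among the 10 was that of Ankrd1, which fell to 0.639 times the WT level. These calls are from edgeR's quasi-likelihood test on all genes at a Benjamini-Hochberg adjusted p under 0.05, which called 40.1% of the 16263 genes tested, 20.4% as higher and 19.6% as lower in AS. With 5 of 10 called, the genes were near the share of all genes. The median log2 fold change was -0.14 over the 10 genes and 0.0061 over all genes tested, and the median absolute log2 fold change was 0.25 and 0.28. Ranges of the lines did not overlap for 8 of the 10 genes, and for 52.3% of all genes tested. Levels are given as CPM, counts scaled to TMM-adjusted library sizes, and fold changes as AS over WT on the log2 scale, with their standard error (SE) and the Benjamini-Hochberg (BH) adjusted p.

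**Figure D1:**
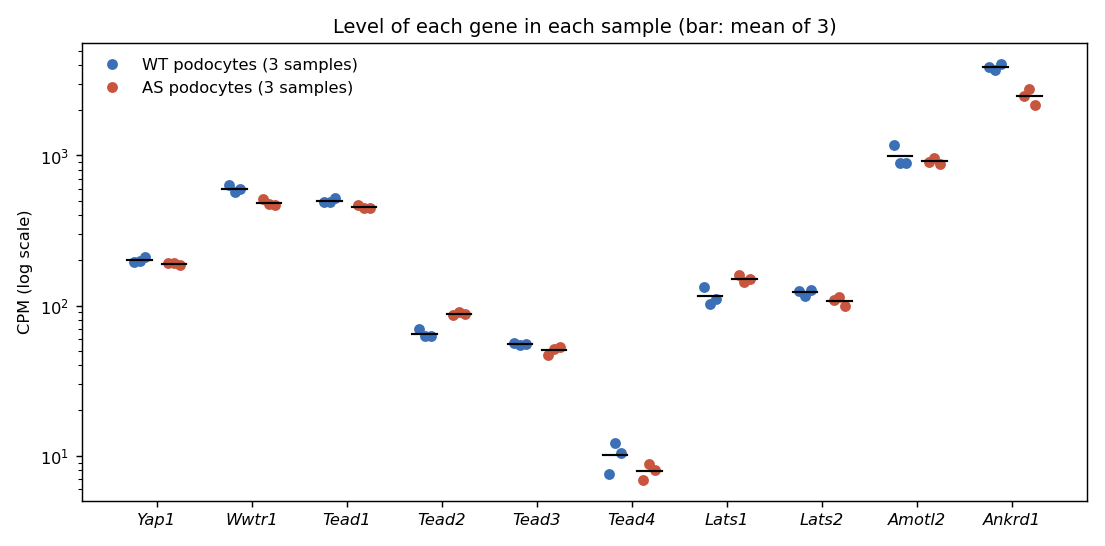
CPM of the 10 genes in each of the 6 samples, on a log axis, with WT in blue, AS in red and a bar at the mean of 3. All AS points of Ankrd1 lie between 2165 and 2791 CPM, below the WT points at 3727 CPM and above, while the points of Tead4 and Amotl2 overlap between the lines.

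The libraries held 45417221 to 54290968 counts. Col4a3, the gene knocked out in the AS line, was at 938 to 1272 CPM in WT and 61.2 to 82.9 CPM in AS samples. WT sample 1 had the lowest share of mitochondrial counts, 0.882% against 1.30 to 2.02% in the other 5. Of 11 podocyte markers, 8 could be tested and 7 differed (edgeR), 5 of them lower and 2 higher in AS. This was 87.5% of the markers tested, against 40.1% of all genes tested. The summed level of the 11 markers was 922 to 1039 CPM in WT and 631 to 691 CPM in AS. Tcf21 had no count in any sample and Nphs1 stayed under 0.5 CPM, while Wt1 fell from 20.6 ± 5.28 to 2.50 ± 0.928 CPM and Synpo from 803 ± 44.2 to 526 ± 30.8 CPM (SD, n = 3 each). The summed level of 8 mesangial and fibroblast markers was 5772 to 7930 CPM in WT and 6852 to 7957 CPM in AS, mostly Acta2. Within that list, Col1a1 (adjusted p = 1.87e-07, edgeR) was at 24.3 ± 4.15 CPM in WT and 477 ± 99.1 CPM in AS (SD, n = 3 each). Pdgfrb, a pericyte and mesangial receptor in the same list, fell from 253 ± 14.3 to 116 ± 0.362 CPM (adjusted p = 8.71e-07, edgeR; SD, n = 3 each). Parietal epithelial markers summed to 642 to 672 CPM in WT and 503 to 533 CPM in AS. Cd44 had the highest mean CPM of them in WT and Pax8 in AS, without scaling to gene length. In WT sample 1, however, Pax8 (272 CPM) was above Cd44 (205 CPM). Endothelial markers summed to 44.7 to 52.4 and 38.0 to 43.0 CPM, nearly all of it Ehd3, tubular markers to 246 to 308 and 197 to 307 CPM, nearly all of it Lrp2, and immune markers to 1.54 to 3.14 and 1.85 to 2.78 CPM, led by Cd68. The part of these differences in the results below was not tested, and fewer cells of a type cannot be told apart from less RNA per cell.

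TEAD proteins bind a short core that reads GGAATG on 1 strand and CATTCC on the other. This core was searched on both strands in the 250 bases before each transcription start in RefSeq (build GRCm38.p6), where 8 of the 10 genes had a promoter entry. At least 1 core was found before 5 of these 8 genes (Yap1, Wwtr1, Tead3, Amotl2 and Ankrd1), compared with 14.4% of the 27025 genes in the promoter table, and before 4 of the 12 listed target genes with an entry. Genes with several starts have more windows, and by window the core was in 58.3% of 12 for the 10 genes and in 12.6% of all. Windows of 1 gene can overlap, and for Wwtr1 the same core counts more than once, at 136 and at 170 bases before a start. A match of letters is a description and not a measured site. The windows of both target genes and 1 window of Wwtr1 are printed because they show where the core stands relative to the start, with the core in capitals. The Ankrd1 window (chr19:36119845-36120094, minus strand) held 2 cores, beginning 210 and 123 bases before the start. The Amotl2 window (chr9:102717554-102717803, plus strand) held 1 core at 65 bases before the start, and the printed window of Wwtr1 (chr3:57575911-57576160, minus strand) held 1 at 136 bases.
Ankrd1: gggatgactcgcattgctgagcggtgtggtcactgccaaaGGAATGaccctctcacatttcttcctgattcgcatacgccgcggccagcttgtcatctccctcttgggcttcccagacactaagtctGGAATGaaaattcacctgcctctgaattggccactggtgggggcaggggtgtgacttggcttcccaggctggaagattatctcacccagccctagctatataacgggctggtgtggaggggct
Amotl2: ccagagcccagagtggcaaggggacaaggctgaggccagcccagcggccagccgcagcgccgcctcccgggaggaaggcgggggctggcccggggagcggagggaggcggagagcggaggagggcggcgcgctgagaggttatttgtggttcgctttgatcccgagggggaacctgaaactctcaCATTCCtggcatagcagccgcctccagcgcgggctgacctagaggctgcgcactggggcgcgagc
Wwtr1: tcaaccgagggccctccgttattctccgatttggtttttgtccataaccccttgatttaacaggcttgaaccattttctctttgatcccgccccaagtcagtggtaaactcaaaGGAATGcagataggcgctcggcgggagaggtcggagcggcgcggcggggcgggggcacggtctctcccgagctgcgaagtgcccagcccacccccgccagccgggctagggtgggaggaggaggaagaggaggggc
No core was found in the windows of Tead2, Lats1 and Lats2.

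The coactivators were described first. Wwtr1 (ENSMUSG00000027803.15, chromosome 3), which encodes TAZ, was at 639, 567 and 601 CPM in the WT samples and at 510, 478 and 465 CPM in the AS samples. The lines did not overlap, AS being the lower. Mean levels were 602 ± 35.99 and 484 ± 22.9 CPM (SD, n = 3 each), which gave a log2 fold change of -0.31 (SE 0.07, BH-adjusted p = 0.00510, edgeR), or 0.804 times the WT level. With the median of chromosome 3 (-0.12) removed, it was -0.20 and only just passed (adjusted p = 0.0489, edgeR).

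Yap1 (ENSMUSG00000053110.14, chromosome 9) was at 196, 198 and 210 CPM in the WT samples and at 191, 193 and 185 CPM in the AS samples. The ranges of the lines did not overlap, but by a small margin. The log2 fold change of -0.08 (SE 0.05, BH-adjusted p = 0.259, edgeR) did not pass the test. Some 116 exon bases of Yap1 are shared with the antisense gene Gm20416, which was itself at no more than 0.910 CPM in any sample.

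Levels of different genes were compared per kilobase of exon. On this scale Wwtr1 was the more abundant coactivator, with 5.81 ± 0.450 times the level of Yap1 in WT and 4.94 ± 0.206 times in AS podocytes (SD, n = 3 each). By sample, the ratio stood at 6.33, 5.56 and 5.54 in WT against 5.18, 4.79 and 4.86 in AS. It was lower in each AS sample than in each WT sample (two-sided exact permutation test, p = 0.10, the smallest that 3 against 3 samples can give). Both coactivators together summed to 148 ± 7.45 CPM per kilobase in WT and to 122 ± 5.01 in AS (SD, n = 3 each).

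The TEAD genes encode the DNA-binding partners of YAP and TAZ, which differ in tissue distribution more than in the sequence they bind. Tead1 (ENSMUSG00000055320.19, chromosome 7) was at 487, 488 and 523 CPM in the WT samples and at 466, 449 and 445 CPM in the AS samples. It was slightly lower in each AS sample, with a log2 fold change of -0.14 (SE 0.06, BH-adjusted p = 0.0867, edgeR), which did not pass the test. Without WT replicate 1 it passed, at -0.16 (adjusted p = 0.0440, edgeR).

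Tead2 (ENSMUSG00000030796.18, chromosome 7), best known from the early embryo, was the TEAD gene that rose. It was at 70.2, 62.4 and 62.4 CPM in the WT samples and at 86.6, 90.0 and 87.6 CPM in the AS samples. All AS samples lay above all WT samples. The log2 fold change was 0.44 (SE 0.06, BH-adjusted p = 0.000491, edgeR), or 1.35 times the WT level, and it passed under each of 14 alternative analyses.

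Tead3 (ENSMUSG00000002249.22, chromosome 17) was at 56.0, 54.4 and 55.2 CPM in the WT samples and at 46.6, 51.2 and 53.3 CPM in the AS samples. The AS samples were lower but spread more widely, and the log2 fold change of -0.13 (SE 0.06, BH-adjusted p = 0.131, edgeR) did not pass. Tead4 (ENSMUSG00000030353.16, chromosome 6), a factor of the trophectoderm and of regenerating muscle, was the least abundant of the 10 genes. It was at 7.57, 12.2 and 10.4 CPM in the WT samples and at 6.88, 8.79 and 8.05 CPM in the AS samples, and the ranges overlapped because of WT sample 1. Its log2 fold change was -0.34 (SE 0.17, BH-adjusted p = 0.15, edgeR) with all samples and -0.51 (adjusted p = 0.0109, edgeR) without WT replicate 1. Without WT replicate 2 it was -0.19 (adjusted p = 0.456, edgeR). With the median of chromosome 6 (-0.21) removed it was -0.13 (adjusted p = 0.608, edgeR). Tead3 and Tead4 transcripts shared 10 distinct sequences of 50 bases, 0.144% and 0.272% of their own. These were counted at every offset, so that they can overlap.

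The make-up of the TEAD family differed between the lines, with nearly equal sums on the scale per kilobase of exon. Per kilobase of exon, the 4 genes summed to 61.4 ± 1.14 CPM in WT against 61.5 ± 0.397 in AS (SD, n = 3 each; two-sided exact permutation test, p = 0.80). A test of 3 against 3 samples cannot show that the sums are equal. Tead1 made up 59.9 ± 1.37% of this sum in WT and 54.3 ± 1.48% in AS, and Tead2 made up 22.1 ± 1.69% and 29.9 ± 0.407% (SD, n = 3 each). By sample, the Tead2 share stood at 24.0, 21.6 and 20.8% in WT against 29.5, 30.3 and 29.9% in AS, without overlap (two-sided exact permutation test, p = 0.10, the smallest possible). Tead3 took 13.4 ± 0.281% and 12.2 ± 0.822%, and Tead4 took 4.55 ± 1.07% and 3.57 ± 0.417% (SD, n = 3 each). Shares within a sample do not depend on the scaling between libraries. Both the shares and the sum rest on exon lengths from the GENCODE M21 annotation, which may differ from the gene models of the counts. The near equality of the sums is particular to this scale. In CPM not divided by length, Tead1 (13570 exon bases) weighs more, and it was lower in each AS sample (445 to 466 CPM) than in each WT sample (487 to 523 CPM).

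**Figure D2:**
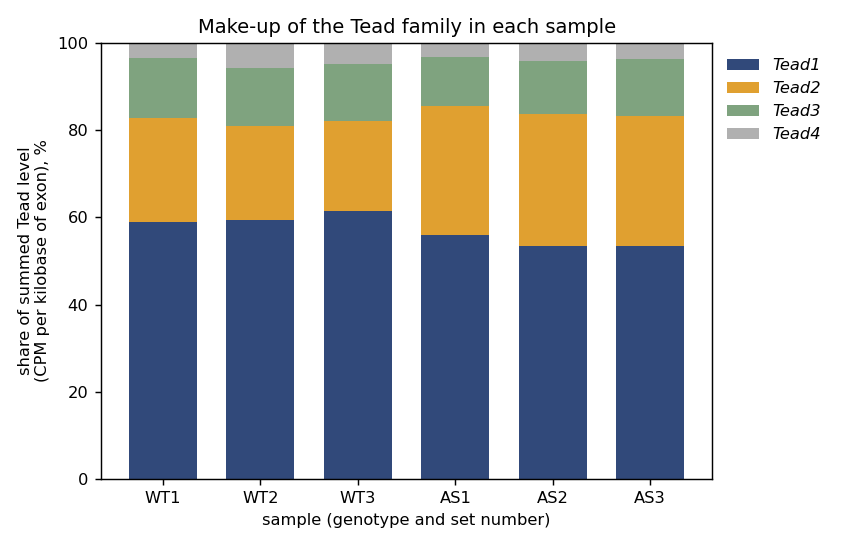
Share of each Tead gene in the summed Tead level (CPM per kilobase of exon) in each of the 6 samples, as stacked bars that add to 100%. The Tead2 segment takes 20.8 to 24.0% in the WT samples and 29.5 to 30.3% in the AS samples, and the Tead1 segment 58.8 to 61.5% and 53.4 to 56.0%.

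The LATS kinases, which phosphorylate YAP and TAZ, differed in opposite directions. Lats1 (ENSMUSG00000040021.15, chromosome 10) was at 132, 103 and 110 CPM in the WT samples and at 160, 143 and 150 CPM in the AS samples. WT sample 1 was the highest of its line, and all AS samples were above it. The log2 fold change was 0.39 (SE 0.09, BH-adjusted p = 0.00724, edgeR), or 1.31 times the WT level. The genes of chromosome 10 as a group were higher in AS podocytes, with a median log2 fold change of 0.31 relative to all chromosomes (523 genes, 85.9% of them higher). With that median removed, the log2 fold change of Lats1 was 0.085 (adjusted p = 0.511, edgeR), and the call was lost.

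Lats2 (ENSMUSG00000021959.17, chromosome 14) was at 125, 115 and 127 CPM in the WT samples and at 109, 113 and 99.9 CPM in the AS samples. Each AS sample was below each WT sample, the nearest pair being 113 and 115 CPM. The log2 fold change of -0.19 (SE 0.06, BH-adjusted p = 0.0436, edgeR) passed narrowly, and it missed the threshold in 6 of 14 alternatives. It was at -0.17 without WT replicate 1, -0.16 without WT replicate 3, -0.21 without AS replicate 1 and -0.14 without AS replicate 3 (adjusted p = 0.0678, 0.137, 0.0784 and 0.175, edgeR). Of its exon bases, 2955 are also annotated to Gm49361 on the same strand. Gm49361 had no count in any sample, and whether reads from the shared bases were dropped is not known. The level of Lats2 per kilobase depends on this, as do each ratio, sum and rank that use it. Chromosome medians were not removed from the ratio that follows. On the scale per kilobase, the ratio of Lats1 to Lats2 came to 0.897 ± 0.0983 in WT against 1.35 ± 0.122 in AS (SD, n = 3 each; two-sided exact permutation test, p = 0.10, the smallest possible), and their sum was 33.3 ± 2.71 and 36.1 ± 1.398 CPM (SD, n = 3 each; p = 0.30 in the same exact test).

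Amotl2 (ENSMUSG00000032531.16, chromosome 9) encodes an angiomotin-like junction protein that is both a target of YAP and a scaffold that restrains it. It was at 1180, 895 and 894 CPM in the WT samples and at 899, 963 and 879 CPM in the AS samples. WT sample 1 stood above the other 5, among which the lines overlapped. The log2 fold change was -0.11 (SE 0.11, BH-adjusted p = 0.437, edgeR), and it turned to 0.031 (adjusted p = 0.718, edgeR) without WT replicate 1.

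Ankrd1 (ENSMUSG00000024803.10, chromosome 19), a muscle ankyrin repeat protein widely used as a readout of YAP and TAZ, was by far the most abundant of the 10 genes. It was at 3857, 3727 and 4058 CPM in the WT samples and at 2485, 2791 and 2165 CPM in the AS samples. The lines were well apart, and the AS samples were more spread. The means were 3881 ± 166 and 2480 ± 313 CPM (SD, n = 3 each), and the log2 fold change was -0.65 (SE 0.10, BH-adjusted p = 0.000707, edgeR). Of all genes tested, 22.7% had an absolute log2 fold change at least as large. The decrease passed in all 14 alternatives, with log2 fold changes from -0.82 to -0.56. It was largest with the median of chromosome 19, itself 0.17, removed.

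**Figure D3:**
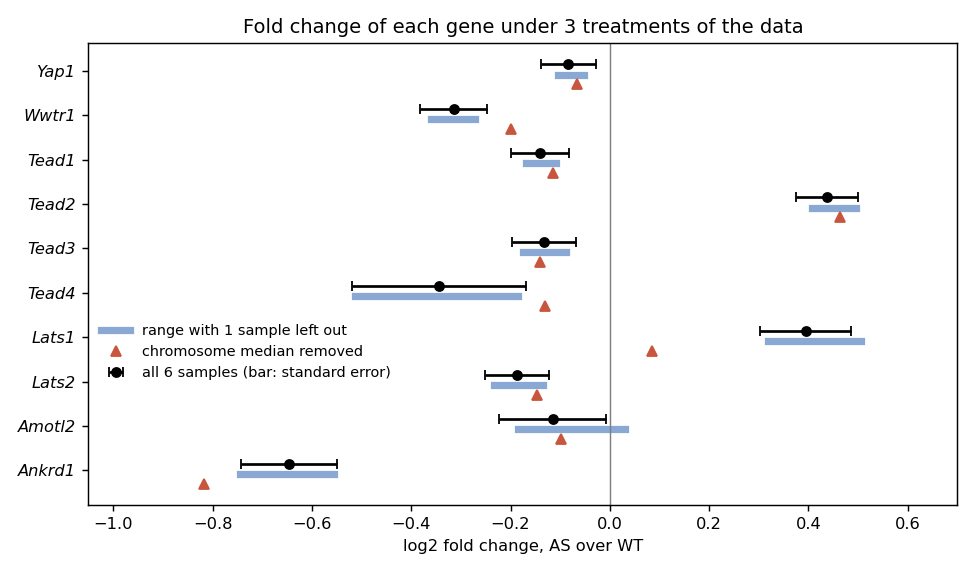
Log2 fold change (AS over WT) of the 10 genes with all 6 samples (black, bars are SEs), the range with 1 sample left out at a time (blue), and the value with the median of the gene's chromosome removed (red). Ankrd1 lies between -0.82 and -0.56 and Tead2 between 0.41 and 0.50, whereas Lats1 moves from 0.39 to 0.085 once the chromosome median is removed.

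Per kilobase of exon, the order of the 10 genes in WT podocytes was Ankrd1 (1345 ± 57.7 CPM), Amotl2 (157 ± 26.2), Wwtr1 (126 ± 7.53), Tead1 (36.8 ± 1.49), Yap1 (21.7 ± 0.855), Lats2 (17.5 ± 0.870), Lats1 (15.8 ± 2.10), Tead2 (13.6 ± 0.936), Tead3 (8.22 ± 0.118) and Tead4 (2.79 ± 0.643; SD, n = 3 for each). The samples of neighbours in this order overlapped for Lats2 with Lats1 and for Lats1 with Tead2. In AS podocytes the first 4 places, Tead3 and Tead4 were the same. Between them stood Lats1 (20.7 ± 1.18 CPM per kilobase), Yap1 (20.5 ± 0.448), Tead2 (18.4 ± 0.362) and Lats2 (15.4 ± 0.986; SD, n = 3 for each), and only Lats1 with Yap1 overlapped among neighbours. Ankrd1 stood above 99.93% of the genes tested in WT and 99.88% in AS, and Tead4 above 44.2% in WT and 40.3% in AS.

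The pattern over the 6 samples was also compared between genes, as the root mean square difference of log2 CPM after each gene was centred on its mean. Among the 10 genes, Yap1 and Tead1 were nearest to each other (0.036), and Tead2 and Lats1 were nearest to each other (0.086), whereas Ankrd1 was 0.20 from its nearest gene, Wwtr1. Among the 12912 genes with a mean of at least 1 CPM, those nearest to Yap1 were Tpp2 (0.017), Arf4 (0.018) and Wars (0.019), and those nearest to Wwtr1 were B230219D22Rik (0.020), Smarcc1 (0.023) and Zfand3 (0.024). These distances are a description over 6 samples that fall into 2 lines.

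The remaining genes of the pathway were taken from lists of 45 genes, of which 43 were tested. Among them 10 were higher and 13 lower in AS podocytes and 20 did not pass, so that 53.5% were called, against 40.1% of all genes tested (20.4% higher and 19.6% lower), and their median log2 fold change was -0.013. In the core cassette, 4 of 6 genes differed, and the MST paralogs went in opposite directions. Stk3 (MST2) rose, from 51.7, 47.7 and 49.3 CPM in the WT samples to 66.0, 56.7 and 61.5 CPM in the AS samples (log2 fold change 0.31, SE 0.07, adjusted p = 0.00660, edgeR). Stk4 (MST1) fell, from 115, 126 and 124 CPM to 84.3, 90.4 and 81.6 CPM (log2 fold change -0.51, SE 0.06, adjusted p = 0.000170, edgeR). Sav1, the scaffold of these kinases, rose by 0.33 on the log2 scale (adjusted p = 0.00608, edgeR). Mob1a, a cofactor of the LATS kinases, had a log2 fold change of -0.22 (adjusted p = 0.0107, edgeR; 0.0539 without AS replicate 3). Its paralog Mob1b was at 107 ± 2.28 and 115 ± 4.74 CPM, and Nf2, the upstream tumour suppressor merlin, at 123 ± 3.24 and 113 ± 2.55 CPM in WT and AS (SD, n = 3 each). Neither passed the test (adjusted p = 0.151 and 0.0708, edgeR).

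Part of these differences went with the chromosome of the gene. With chromosome medians removed, Stk4 kept a log2 fold change of -0.48 (adjusted p = 0.000302, edgeR) and Sav1 one of 0.37 (adjusted p = 0.00400, edgeR), whereas Stk3, on chromosome 15 with a median of 0.19, was at 0.12 (adjusted p = 0.229, edgeR) and Mob1a, on chromosome 6 with a median of -0.21, at -0.0083 (adjusted p = 0.925, edgeR). The Stk3 to Stk4 ratio per kilobase came to 0.391 ± 0.0351 in WT against 0.691 ± 0.0799 in AS, and their sum was 28.9 ± 0.689 and 24.6 ± 0.602 CPM per kilobase (SD, n = 3 each).

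Of the 12 listed kinases that act beside MST or LATS, 4 rose and 2 fell, so that 50% were called, against 40.1% of all genes tested. Map4k2 (log2 fold change 0.51), Taok3 (0.50) and Map4k5 (0.30) rose. With chromosome medians removed, Map4k2 was at 0.34 and Taok3 at 0.31, and both still passed. Tnik fell from 6.98 ± 3.69 to 2.78 ± 0.101 CPM (SD, n = 3 each; log2 fold change -1.33, adjusted p = 0.00811, edgeR). WT sample 1, at 11.2 CPM, carried much of this, and without WT replicate 1 the value was -0.80 (adjusted p = 0.00318, edgeR). Of the 15 upstream scaffolds and receptors, 4 rose and 5 fell, so that 60% were called, against the same 40.1%. The KIBRA proteins, which help to activate the cascade, were split: Wwc1 fell from 677 ± 69.4 to 509 ± 18.1 CPM (log2 fold change -0.41, adjusted p = 0.00286, edgeR) and Wwc2 rose from 323 ± 15.4 to 433 ± 12.98 CPM (0.42, adjusted p = 0.000525, edgeR; SD, n = 3 each). With the median of chromosome 8 (0.31) removed, Wwc2 was at 0.11 (adjusted p = 0.185, edgeR). The FERM protein Frmd6 rose by 0.43 on the log2 scale, and Rassf1, a partner of MST kinases, had a log2 fold change of -0.34.

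The STRIPAK complex holds a phosphatase that switches off MST kinases. Among 8 of its genes, Mob4 (log2 fold change -0.27), Strn3 (-0.25) and Slmap (-0.30) fell, and 5 did not pass, among them Strip2, which was under 1 CPM in every sample and passed only without WT replicate 3 (adjusted p = 0.0344, edgeR). The adjusted p of the 3 that fell ran from 0.00284 to 0.00794 (edgeR). They were 37.5% of the 8 genes, near the 40.1% called of all genes tested. Of the VGLL proteins, which compete with YAP and TAZ for TEAD, Vgll4 fell from 74.4 ± 4.30 to 60.0 ± 1.30 CPM (log2 fold change -0.31, adjusted p = 0.00284, edgeR; -0.097 and adjusted p = 0.247 with the chromosome 6 median removed). Vgll3 was the most abundant of them, at 372 ± 22.3 and 392 ± 22.1 CPM (SD, n = 3 each), and did not pass (adjusted p = 0.428, edgeR). Vgll1 had no count, Vgll2 had 5 counts in WT and 1 in AS over all samples, and neither was tested.

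**Figure D4:**
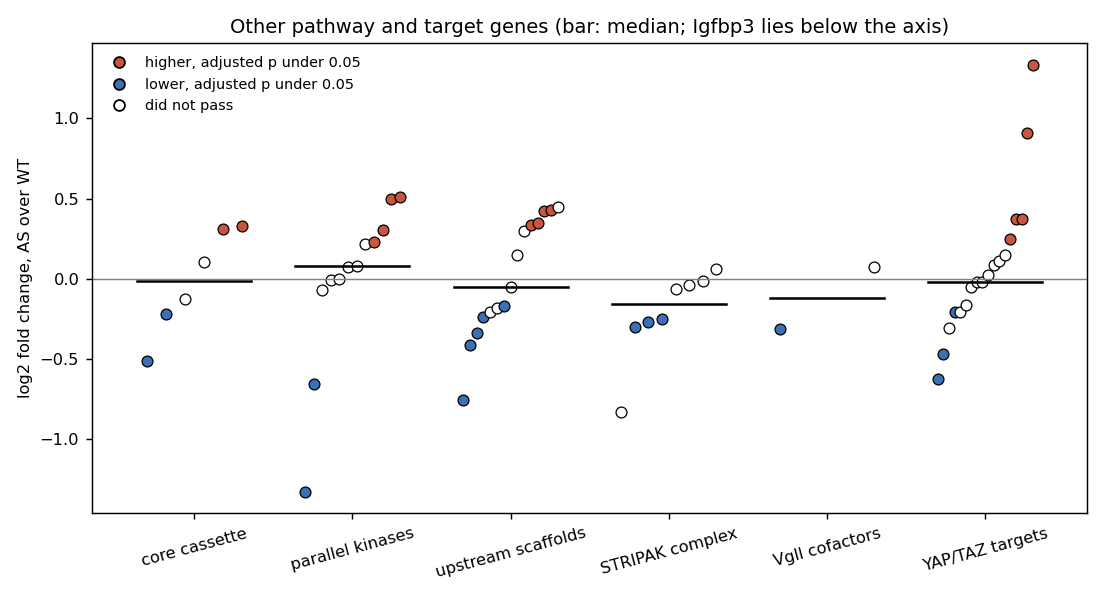
Log2 fold change (AS over WT) of the other pathway genes and of the YAP/TAZ target genes, 1 point per gene, filled red where higher and blue where lower at an adjusted p under 0.05, with the median of each list as a bar. Both colours occur in each list except STRIPAK and the Vgll cofactors, where the filled points are blue, and Igfbp3 lies below the axis.

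The published signature of 22 YAP/TAZ target genes holds Amotl2, Ankrd1 and Lats2, and its other 19 genes were all tested. Of these 5 rose, 4 fell and 10 did not pass, so that 47.4% were called, near the 40.1% of all genes tested, with a median log2 fold change of -0.018. The classical targets did not pass: Ccn1 (Cyr61) was at 2514, 1846 and 1747 CPM in the WT samples and at 2174, 2110 and 1729 CPM in the AS samples (adjusted p = 0.917, edgeR). Ccn2 (connective tissue growth factor) was at 5531, 3910 and 3808 CPM in WT and at 6060, 4604 and 3991 CPM in AS (adjusted p = 0.555, edgeR). In both lines sample 1 held the highest Ccn1 and Ccn2, and the lines overlapped.

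The targets that differed went both ways. Nt5e, the ectonucleotidase CD73, rose from 4.83 ± 0.174 to 12.2 ± 1.52 CPM (SD, n = 3 each; log2 fold change 1.33, adjusted p = 3.84e-05, edgeR), and Myof (myoferlin) rose from 364 ± 6.49 to 472 ± 26.3 CPM (SD, n = 3 each; 0.38, adjusted p = 0.00116, edgeR). With the median of chromosome 19 removed, Myof was at 0.20 (adjusted p = 0.0296, edgeR). Ccdc80, a secreted matrix protein, fell from 2087 ± 87.4 to 1506 ± 6.37 CPM (SD, n = 3 each; -0.47, adjusted p = 0.000410, edgeR). Igfbp3, an IGF binding protein, had 44, 128 and 83 counts in the WT samples and 0, 0 and 2 counts in the AS samples. Summed over samples and scaled to library size, its level was 134-fold higher in WT, with an exact 95% interval for counting error alone from 36.8 to 1116. This fold rests on the 2 counts of AS replicate 3, without which no AS sample had a count.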

How the data were processed

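RNA from 3 WT and 3 AS samples was made into mRNA libraries with 15 cycles of PCR. The deposited table holds raw counts by gene, as whole numbers without normalization. The submitters' processing notes name FastQC, Trim Galore, STAR, edgeR and the build mm39. The counting tool, annotation release and strand setting were not given in sources used here. Symbols, chromosomes and exon lengths were taken from GENCODE M21 (GRCm38), which matched 51880 of 57132 identifiers without version. As the builds differ, gene coordinates are not given, and promoter positions are those of RefSeq on GRCm38.p6.

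The test was run in edgeR 4.0.16 (R 4.3.3): filterByExpr (minimum count 10, minimum total 15), TMM, quasi-likelihood test, genotype as the only term, Benjamini-Hochberg over 16263 genes, two-sided. The standard error is the log2 fold change over the square root of F. Alternatives were RLE factors, library size only, no filter, mean CPM of at least 1, DESeq2 1.42.0, limma-voom (limma 3.58.1, the method the paper names), a replicate block, each sample left out, and chromosome medians (genes with mean log2 CPM over 2) removed as an offset. The 10 genes and all lists were chosen with earlier results of these data known. Beyond the 10 genes, the text names the core cassette, Ccn1, Ccn2, Col4a3, up to 4 genes per list with the smallest adjusted p, the nearest patterns and leading markers. Tcf21, Col1a1 and the paralog ratios were picked after their values were seen. Intervals cover counting error only.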

Additional observations from a re-analysis of the deposited data

How the results depend on the processing

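The number of genes called, 6517, ran from 5120 to 7066 over 14 alternatives. Of the 10 genes, 5 were called with all samples and 4 to 6 with 1 sample left out. In the latter fits, 5120 to 6776 of all 16678 to 16831 genes tested were called. The calls of Ankrd1, Wwtr1 and Tead2 and the directions of all 10 genes but Amotl2 held in each alternative. With chromosome medians removed 3 of the 10 were called, beside 5372 of all 16263 genes tested. Lats1 was then at 0.085 and Lats2 at -0.15, both without a call. With library size only, Lats2 was at -0.16 without a call. With DESeq2, Tead1 passed at -0.15. With 1 sample left out, the log2 fold change ran from -0.17 to -0.11 for Tead1, from -0.51 to -0.19 for Tead4, from -0.23 to -0.14 for Lats2 and from -0.18 to 0.031 for Amotl2. None of the other alternatives moved a call of the 10, except the replicate block below. For 26 other named genes, 348 of 362 values kept direction and call and 7 changed direction, all in genes that did not pass: Ccn1 was at 0.0069 with library size only, 0.094 with chromosome medians removed and between -0.12 and 0.16 with 1 sample left out, Ccn2 was at -0.16 with chromosome medians removed and between -0.048 and 0.34 with 1 left out, and Mob1b was at -0.083 with chromosome medians removed. The causes of these changes were not tested.

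The main test did not pair the samples by set number. Deviations from the line means correlated at 0.147, 0.0939 and 0.0526 for equal numbers, and at -0.130 to 0.0571 for unequal numbers. Of 6 samples, 5 were closest to their own number. A weak pairing by set is therefore possible, and a replicate block was run as an alternative. With the replicate block 7066 of all 16263 genes tested and 6 of the 10 were called. The added gene was Tead4, at -0.33 (adjusted p = 0.0416, edgeR). The fold of Igfbp3 is limited by depth, with 2 counts in AS.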
